A study of Mus musculus with 13 samples.

Results

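The genes described here are 10 members and outputs of the circadian clock (Arntl, Npas2, Clock, Per1, Per2, Per3, Nr1d1, Nr1d2, Dbp and Tef), chosen by gene symbol in the deposited table of unnormalized array values. They had 17 of its 25697 probes. Of these, 12 probes of 9 genes were detected on enough arrays to be tested, among 11887 tested probes in all. The 13 mice were male C57BL/6J, and 1 Illumina array (MouseRef-8 v2.0) per mouse measured RNA of the proximal small intestine. The 5 ezetimibe mice ate lab chow with 0.005% ezetimibe, an inhibitor of the sterol transporter NPC1L1, and the 8 control mice ate regular chow. No genetic change is named for either group. The labels name neither the mice's age, nor how long they were fed, nor the hour of tissue collection.

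The clock of mammalian cells is a feedback loop. ARNTL (also called BMAL1) pairs with CLOCK or its relative NPAS2 and switches on genes with E-box sequences, among them the Per genes, Nr1d1, Nr1d2, Dbp and Tef. PER proteins then inhibit that pair, and the nuclear receptors NR1D1 and NR1D2 (REV-ERB alpha and beta) repress Arntl, so that Arntl and Npas2 peak in opposite phase to Dbp, Nr1d1 and the Per genes. Feeding time is a known cue for this rhythm in the gut, where sugar and peptide transporters are known to be rhythmic.

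Promoter windows are shown for 4 genes on which the results below turn or that carry the letters of these elements. Each runs from 250 bases before to 50 bases after a gene start in RefSeq, build GRCm38.p6, on the gene's strand and 5′ to 3′. Capitals mark CACGTG, an E-box, in Tef (chr15:81802423-81802722, plus strand), in Per1 (chr11:69098699-69098998, plus strand) and in Slc5a1 (chr5:33103969-33104268, plus strand), and TAGGTCA, a core of the element bound by NR1D1 and ROR proteins, in Arntl (chr7:113207261-113207560, plus strand).
Tef: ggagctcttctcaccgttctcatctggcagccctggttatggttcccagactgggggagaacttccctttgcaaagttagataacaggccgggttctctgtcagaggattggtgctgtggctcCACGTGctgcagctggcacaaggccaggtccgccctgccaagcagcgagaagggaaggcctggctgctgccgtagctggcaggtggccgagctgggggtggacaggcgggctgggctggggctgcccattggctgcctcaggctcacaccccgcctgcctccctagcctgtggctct
Per1: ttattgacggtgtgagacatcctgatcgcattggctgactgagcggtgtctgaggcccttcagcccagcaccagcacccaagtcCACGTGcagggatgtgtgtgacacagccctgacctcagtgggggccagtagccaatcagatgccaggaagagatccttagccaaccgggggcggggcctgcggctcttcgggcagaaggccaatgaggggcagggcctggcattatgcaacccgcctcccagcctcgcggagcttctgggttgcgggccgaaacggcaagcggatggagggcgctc
Slc5a1: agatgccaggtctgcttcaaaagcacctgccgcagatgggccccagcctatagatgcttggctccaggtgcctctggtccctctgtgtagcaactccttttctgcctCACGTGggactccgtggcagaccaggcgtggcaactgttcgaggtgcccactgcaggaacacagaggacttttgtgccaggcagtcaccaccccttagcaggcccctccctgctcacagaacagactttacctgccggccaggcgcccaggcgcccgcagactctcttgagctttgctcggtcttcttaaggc
Arntl: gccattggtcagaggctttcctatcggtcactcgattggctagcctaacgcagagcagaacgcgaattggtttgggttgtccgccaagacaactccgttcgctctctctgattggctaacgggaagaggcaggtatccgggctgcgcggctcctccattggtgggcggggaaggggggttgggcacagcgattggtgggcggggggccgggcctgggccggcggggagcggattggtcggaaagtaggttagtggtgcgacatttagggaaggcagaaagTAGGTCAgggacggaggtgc

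The E-box stood 127 bases before the start of Tef, 166 before that of Per1 and 143 before that of Slc5a1. The Arntl element began at base 31 after the start. CACGTG, which reads the same on both strands, was in 7.15% of all 32851 promoter windows and in 3 of the 14 windows of clock genes, which covered 9 of the 10 genes. TAGGTCA, searched on both strands, was in 2.61% of all windows and in 1 of the 14. The related TGGGTCA was in 3.98% of all windows and in 0 of the 14. The D-box TTATGTAA, the kind of site DBP and TEF bind, was in 0.938% of all windows and in 1 of the 14, a Per3 window, and TTACGTAA in 0.119% and in 0 of the 14. The motifs do not overlap in the windows shown. The 3 clock gene windows with the E-box belonged to 2 of the 9 genes, Per1 and Tef. Slc5a1 is not among these clock genes. No window of Dbp, Nr1d1 or Nr1d2 held the E-box, and sequence outside the windows was not searched. A match is a stretch of letters and was not tested for binding.

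Levels are log2 intensities after background correction and quantile normalization, with the fitted difference between the 2 slides taken out. They are compared between mice, never between probes. The arrays had 11085 to 12380 detected probes each. Median signals were 146.9 to 152.8 on slide 1 (ezetimibe 1 and 2, control 1 to 4) and 120.7 to 127.9 on slide 2 (ezetimibe 3 to 5, control 5 to 8), and no array stood apart (r between arrays across tested probes 0.9524 to 0.9895). Levels differed between slides for 6330 of all tested probes and 5 of the 12 clock probes, so slide was a term in every fit. The enterocyte markers Vil1, Sis and Apoa1 averaged 12.94, 13.66 and 14.65 on the log2 scale in ezetimibe mice, against 12.82, 13.68 and 14.59 in control mice, bright on every array, while the probes of Fabp1 and Fabp2 were detected on 0 arrays. Exocrine pancreas markers also varied, with a mean over 13 genes of 6.07 to 12.96 in ezetimibe mice and 5.98 to 12.06 in control mice.

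None of the 9 tested clock genes passed the test between ezetimibe and control mice. Of the 12 probes, 0 passed an adjusted p under 0.10 (limma, Benjamini-Hochberg over all tested probes), against 30 of 11887 probes in all (0.252%, 28 higher and 2 lower with ezetimibe). At an unadjusted p under 0.05 there were 0 of the 12, against 735 of all tested probes. Both groups overlapped for every clock probe, and the plot of levels by group shows the brightest probe of each gene. Such overlap was not counted over all tested probes.

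**Figure D1:**
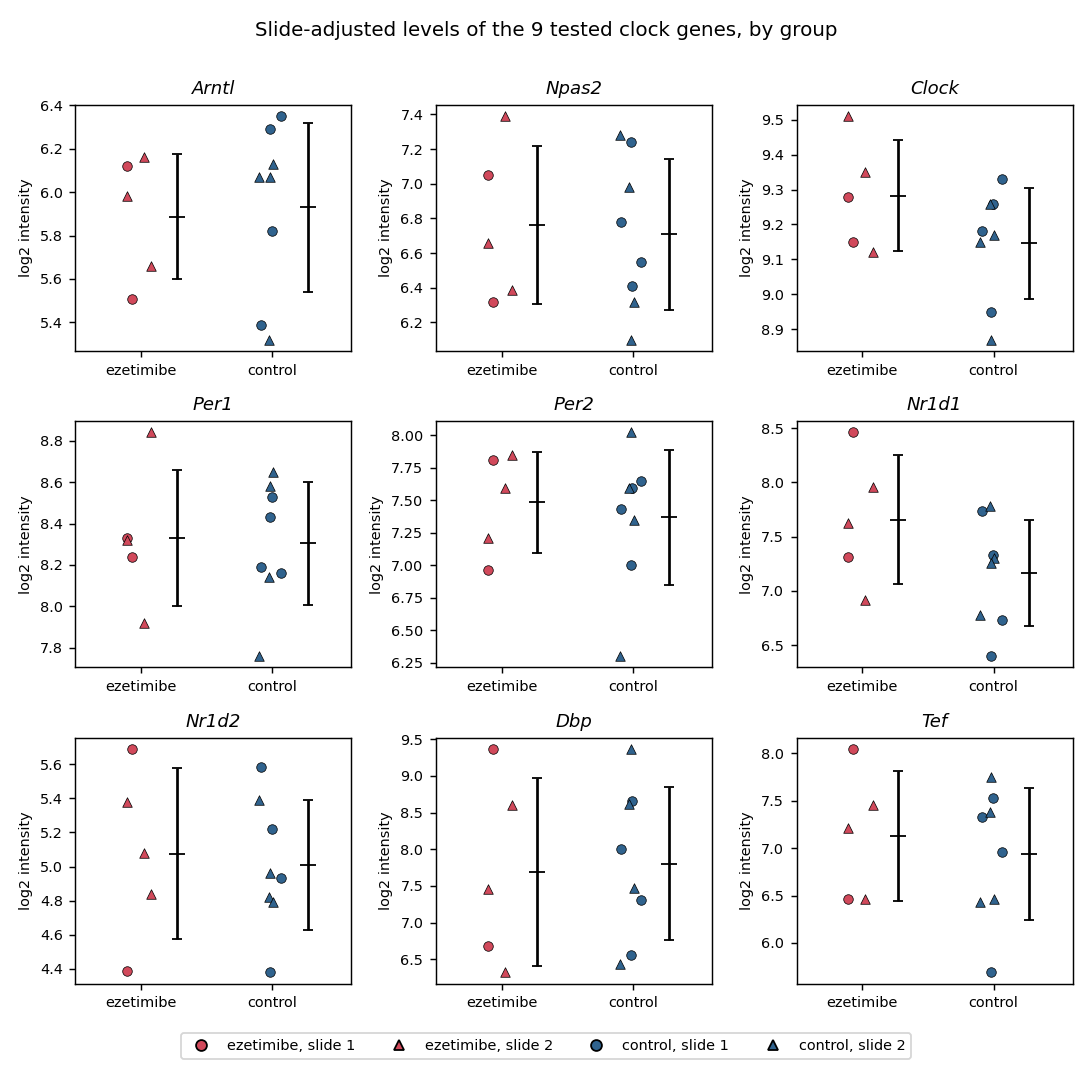
Slide-adjusted log2 intensity (y axis) of the brightest tested probe of each of 9 clock genes in ezetimibe mice (n = 5) and control mice (n = 8), 1 point per mouse, circles for slide 1 and triangles for slide 2. Black bars are mean and SD; the groups overlap in every panel, and Dbp spans 3.05 log2 units.

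In the positive arm, Arntl, which encodes the shared partner of CLOCK and NPAS2, had levels of 6.12, 5.51, 5.66, 6.16 and 5.98 in ezetimibe mice 1 to 5, against 5.32 to 6.35 (median 6.07) in control mice. Low and high mice occurred in both groups. The group difference was -0.05 ± 0.19 (log2, ezetimibe minus control, ± SE, adjusted p = 0.983). Npas2 had levels of 7.05, 6.32, 6.39, 7.39 and 6.66 in ezetimibe mice, against 6.10 to 7.28 (median 6.67) in control mice, a difference of 0.06 ± 0.23 (adjusted p = 0.983). Its highest level was that of ezetimibe 4 and its lowest that of control 8. Clock itself varied little: the brighter probe lay at 9.28, 9.15, 9.12, 9.35 and 9.51 in ezetimibe mice, against 8.87 to 9.33 (median 9.18) in control mice, a difference of 0.13 ± 0.10 (adjusted p = 0.875). The dimmer Clock probe, detected on 10 of 13 arrays, differed by 0.24 ± 0.16 (adjusted p = 0.867), and the third was detected on 0 arrays.

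Among the repressors of the loop, Per1 had levels of 8.33, 8.24, 8.84, 7.92 and 8.32 in ezetimibe mice, against 7.76 to 8.65 (median 8.31) in control mice, with a difference of 0.03 ± 0.16 (adjusted p = 0.99). Its second probe gave 0.04 ± 0.18. Per2 stood at 6.96, 7.81, 7.85, 7.59 and 7.21 in ezetimibe mice, against 6.30 to 8.02 (median 7.51) in control mice, and its probes differed by 0.12 ± 0.24 and 0.13 ± 0.20 (adjusted p = 0.97 and 0.951). Control 5 was the lowest mouse for both Per1 and Per2. The third Per2 probe was detected on 1 array, and the only Per3 probe on 0 of 13 arrays, so Per3 has no measured level here.

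Nr1d1, the REV-ERB alpha gene, had the largest group difference among the clock probes, and it was not past the threshold. It lay at 7.31, 8.46, 7.96, 6.92 and 7.63 in ezetimibe mice, against 6.40 to 7.78 (median 7.28) in control mice. Ezetimibe 2 and 3 lay above all control mice, and ezetimibe 4 lay below the control median. The difference was 0.49 ± 0.27 (unadjusted p = 0.0834, adjusted p = 0.838), with a 95% interval of -0.07 to 1.06. It was 0.83 ± 0.40 on slide 1 and 0.22 ± 0.27 on slide 2. Nr1d2 had 4.39, 5.69, 4.84, 5.08 and 5.38 in ezetimibe mice, against 4.38 to 5.58 (median 4.95) in control mice, a difference of 0.07 ± 0.22 (adjusted p = 0.98). This probe was near background, detected in 3 of 5 ezetimibe mice and 5 of 8 control mice, and its second probe was detected on 0 arrays.

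The output genes Dbp and Tef encode transcription factors of the PAR bZIP family, and their levels spread most. Dbp stood at 6.68, 9.36, 8.60, 6.32 and 7.46 in ezetimibe mice 1 to 5. In control mice 1 to 8 it stood at 6.56, 8.66, 8.00, 7.31, 6.43, 8.61, 7.47 and 9.37. Each group held mice at both ends, and the whole span was 3.05 log2 units, an 8.3-fold range. The means were 7.68 ± 1.28 in ezetimibe mice (SD, n = 5) and 7.80 ± 1.05 in control mice (SD, n = 8), and the difference was -0.12 ± 0.55 (adjusted p = 0.986, 95% interval -1.29 to 1.06). That interval held differences in Dbp of up to about 1 log2 unit in either direction. It was not adjusted for the number of probes, so passing the adjusted threshold would take a larger difference with this number of arrays. Tef lay at 6.46, 8.05, 7.46, 6.46 and 7.21 in ezetimibe mice, against 5.69 to 7.75 (median 7.15) in control mice, a difference of 0.19 ± 0.34 (adjusted p = 0.961). Its second probe was detected on 2 arrays. The effect of ezetimibe did not pass a test of difference between slides for any clock probe (limma product term, 0 of 12 at an unadjusted p under 0.05 and 0 of 11887 at an adjusted p under 0.10).

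The spread among mice was wide for most of these genes. The SD over 13 mice was 1.09 for Dbp, 0.67 for Tef, 0.56 for Nr1d1, 0.46 for Per2 and 0.42 for Npas2 (log2), against a median of 0.22 over all tested probes. Those SDs stood at percentiles 99.5, 98.73, 98.04, 96.21 and 95.14 of the tested probes, given as a description. Arntl, with an SD of 0.34, stood at percentile 86.99, and the brighter Clock probe, at 0.17, stood at percentile 26.63. In this whole-tissue RNA, fewer cells expressing a gene and less RNA of it per cell cannot be told apart.

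**Figure D2:**
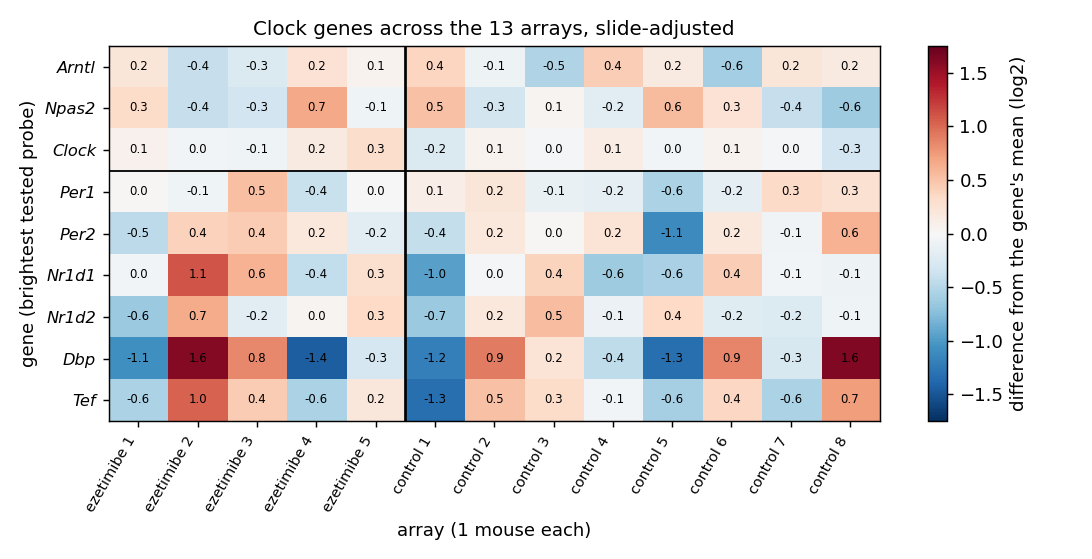
Difference of each mouse from the gene's mean over 13 mice (log2, colour and printed value; red higher, blue lower) for 9 clock genes (rows) in ezetimibe 1 to 5 and control 1 to 8 (columns), after slide adjustment. Ezetimibe 2 and control 8 are 1.6 above the mean for Dbp, and ezetimibe 4 is 1.4 below it.

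The second question was whether the opposite arms of the loop varied against each other from mouse to mouse. Arntl was low where Nr1d1, Tef and Dbp were high. Npas2 was low where Dbp, Tef, Per2 and Per1 were high. Each of these relations had an adjusted p under 0.10 for r over 36 pairs (permutation test). Ezetimibe 2, for example, had the highest Nr1d1, Nr1d2 and Tef of all 13 mice, and the second highest Dbp, with Arntl at 5.51 and Npas2 at 6.32. Ezetimibe 4 had the lowest Dbp, at 6.32, and the highest Npas2, at 7.39, with Arntl at 6.16. Control 1 had the lowest Tef and Nr1d1, at 5.69 and 6.40, and Arntl at 6.29 and Npas2 at 7.24. Control 8 departed from this: Dbp was the highest of all at 9.37 and Npas2 the lowest at 6.10, yet Arntl was at its control median, 6.07. The relations were not equally stable. For rho, only Arntl with Nr1d1 and Npas2 with Dbp or Tef passed. Of 25 alternatives with a test of r, Arntl with Nr1d1 and Npas2 with Dbp passed in 22, and Npas2 with Tef in 21. Arntl with Dbp passed in 9, Arntl with Tef in 10, Npas2 with Per1 in 11 and Npas2 with Per2 in 14.

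The pairwise relations were measured by Pearson's r and Spearman's rho over 13 mice, with slide differences taken out and two-sided permutation tests within slides (100000 permutations, Benjamini-Hochberg over 36 pairs). Dbp and Tef moved together most closely, with r = 0.908 and rho = 0.934 (permutation p = 7e-05 and 5e-05, adjusted 0.00252 and 0.0018). Their r was 0.944 on slide 1 and 0.916 on slide 2 (exact permutation p = 0.00556 and 0.0119), and 0.862 without control 8 and ezetimibe 2, the mice farthest from the median Dbp. In control mice alone it was 0.903. Arntl and Nr1d1 ran opposite, with r = -0.82 and rho = -0.874 (permutation p = 0.00137 and 0.00055, adjusted 0.0247 and 0.0099). That r was -0.868 on slide 1 and -0.75 on slide 2 (exact permutation p = 0.025 and 0.0478), and -0.904 without control 6 and control 3. Npas2 and Dbp also ran opposite, with r = -0.802 and rho = -0.808 (permutation p = 0.00306 and 0.00255, adjusted 0.0249 and 0.0229), at -0.887 on slide 1, -0.762 on slide 2 and -0.695 without ezetimibe 4 and control 5. Npas2 against Tef gave r = -0.71 and rho = -0.736 (permutation p = 0.00661 and 0.00494, adjusted 0.0315 and 0.0356), with -0.927 on slide 1, -0.601 on slide 2 and -0.66 without ezetimibe 4 and control 5.

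**Figure D3:**
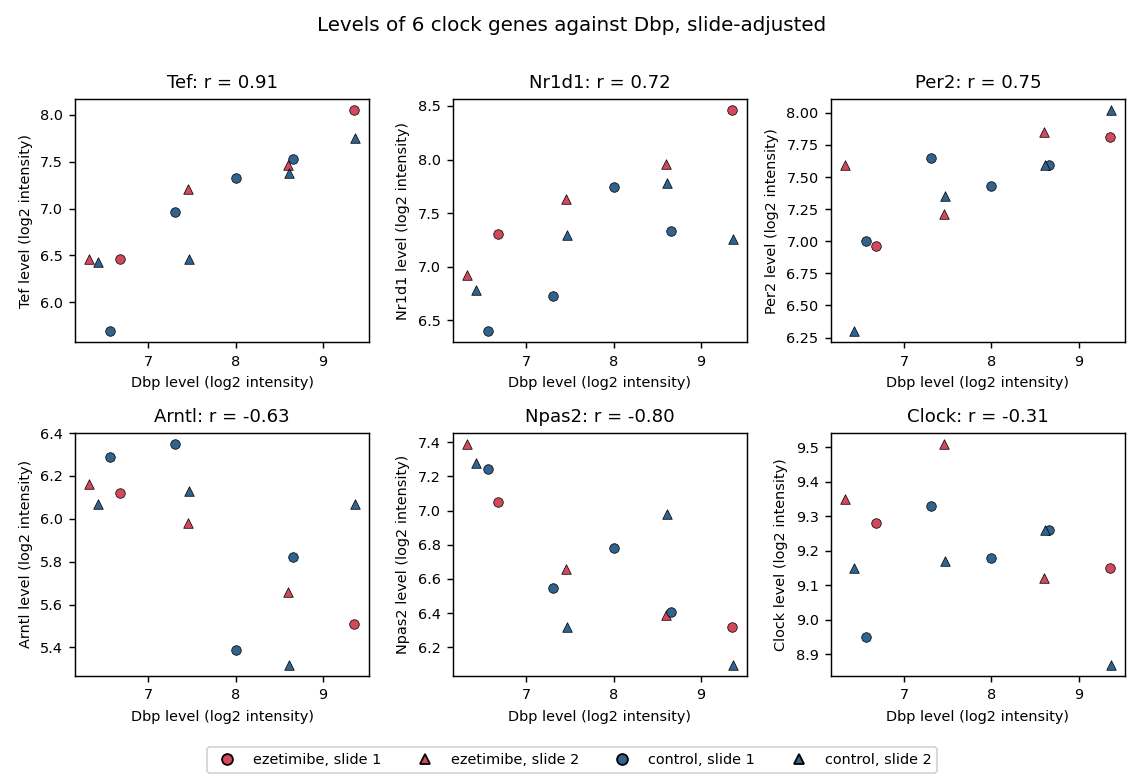
Slide-adjusted log2 intensity of Tef, Nr1d1, Per2, Arntl, Npas2 and Clock (y axes) against that of Dbp (x axes), 1 point per mouse, red for ezetimibe and blue for control, circles for slide 1 and triangles for slide 2. Tef climbs with Dbp (r = 0.91) and Npas2 declines (r = -0.80), with both groups along the same cloud.

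Per2 went with Dbp at r = 0.748 and rho = 0.731 (permutation p = 0.00346 and 0.0101, adjusted 0.0249 and 0.0608), at 0.854 on slide 1, 0.718 on slide 2 and 0.713 without control 5 and ezetimibe 1. Nr1d1 went with Dbp at r = 0.723 and rho = 0.643 (permutation p = 0.007 and 0.0248, adjusted 0.0315 and 0.105), at 0.811 on slide 1, 0.671 on slide 2 and 0.583 without ezetimibe 2 and control 1. Arntl against Dbp was weaker, with r = -0.631 and rho = -0.615 (permutation p = 0.0301 and 0.0327, adjusted 0.0904 and 0.114), at -0.758 on slide 1, -0.513 on slide 2 and -0.698 without control 6 and control 3. Of the pairs with Tef, Nr1d1 gave r = 0.793, Per2 0.692 and Arntl -0.661 (permutation p = 0.00483, 0.00282 and 0.0256, adjusted 0.029, 0.0249 and 0.0839; rho 0.703, 0.83 and -0.632). On the separate slides these were 0.842 and 0.692 for Nr1d1, 0.877 and 0.667 for Per2, and -0.746 and -0.528 for Arntl.

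Of the remaining pairs, Npas2 with Per2 and Npas2 with Per1 passed the threshold for r but not for rho. The others passed for neither. Npas2 and Per2 gave r = -0.67 and rho = -0.659 (permutation p = 0.0164 and 0.0262, adjusted 0.0655 and 0.105). That r was -0.957 on slide 1 and -0.562 on slide 2 (exact permutation p = 0.00694 and 0.179). Npas2 and Nr1d1 gave r = -0.505 and rho = -0.385 (permutation p = 0.0671 and 0.19, adjusted 0.181 and 0.364), and Arntl and Per2 gave r = -0.324 and rho = -0.269 (permutation p = 0.267 and 0.376, adjusted 0.443 and 0.556). Arntl and Npas2, both of the positive arm, gave r = 0.193 and rho = 0.192 (permutation p = 0.53 and 0.523, adjusted 0.637 and 0.627). It was 0.465 on slide 1, -0.00846 on slide 2 and 0.464 without control 6 and control 3. Arntl and Per1 gave r = -0.0361 and rho = 0.0385 (permutation p = 0.907 and 0.902, adjusted 0.952 and 0.928). Clock, at its brighter probe, had r between -0.351 and 0.242 with all 8 other genes. The dimmer Clock probe, which had no permutation test, gave r = -0.697 and rho = -0.681 with Dbp. With Arntl it gave r = 0.139 and rho = 0.253. Some values differed in sign between slides of 6 and 7 mice, a difference that was not tested. Npas2 and Per1 gave r = -0.692 and rho = -0.687 over all mice (permutation p = 0.0256 and 0.0355, adjusted 0.0839 and 0.114), with 0.179 on slide 1 and -0.916 on slide 2 (exact permutation p = 0.719 and 0.00734). Nr1d2 and Dbp gave r = 0.339 and rho = 0.231 (permutation p = 0.272 and 0.45, adjusted 0.443 and 0.6), with 0.903 on slide 1 and -0.577 on slide 2 (exact permutation p = 0.0236 and 0.187). The Nr1d2 probe was the one whose level differed most between slides among clock genes, by -1.03 (slide 2 minus slide 1, adjusted p = 0.00139).

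**Figure D4:**
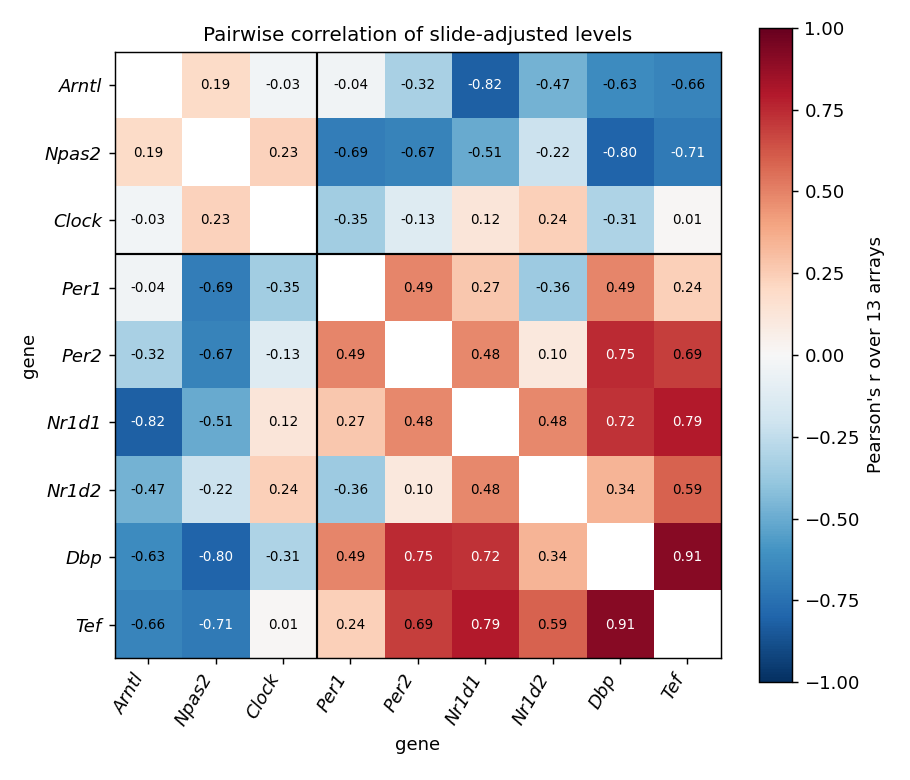
Pearson's r over 13 mice between the slide-adjusted levels of each pair of 9 clock genes (rows and columns), red for positive and blue for negative; black lines part the positive arm (Arntl, Npas2, Clock) from the opposite arm. The r between the arms was below 0 in 15 of 18 pairs, and within the opposite arm it was above 0 in 14 of 15.

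To set these relations against the rest of the array, each tested probe was fitted on the Dbp level with slide and group in the model. Of 11886 probes, 6 passed an adjusted p under 0.10 (0.0505%, 4 with and 2 against Dbp), and 1 of the 8 other clock genes was among them, Tef. Tef had a slope of 0.56 ± 0.07 log2 per log2 unit of Dbp (adjusted p = 0.00658, rank 2 of all probes). At an unadjusted p under 0.05 there were 5 of the 8 clock genes, against 8.48% of all tested probes. Nr1d1 had a slope of 0.39 ± 0.08 (unadjusted p = 0.000147, adjusted p = 0.146, rank 12). Npas2 had -0.31 ± 0.07 (adjusted p = 0.213, rank 37), Per2 0.32 ± 0.08 (adjusted p = 0.283, rank 48) and Arntl -0.20 ± 0.08 (adjusted p = 0.528, rank 444). Per1 had 0.13 ± 0.07 at its brighter probe and 0.18 ± 0.07 at its second (limma, unadjusted p = 0.0747 and 0.0222). The second Per2 probe had 0.24 ± 0.07 (limma, unadjusted p = 0.00387). The brighter Clock probe had a slope of -0.04 ± 0.04 and the dimmer one -0.18 ± 0.06 (unadjusted p = 0.338 and 0.0103), and the difference between the probes was not tested. The dimmer probe, detected on 10 of 13 arrays, had its lowest level, 4.44, in control 8, the mouse with the highest Dbp. Tef was past the threshold in 28 of 32 alternatives, and the 4 losses included the fit without a slide term and each slide alone.

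The other probes past the threshold included Slc5a1, the gene of the sodium and glucose transporter SGLT1 of the enterocyte brush border. Its promoter window stands above, and those of the other probes named in this paragraph are not shown. Slc5a1 lay at 11.18, 11.58, 11.71, 10.97 and 11.32 in ezetimibe mice, against 10.92 to 11.77 (median 11.47) in control mice. The groups overlapped, and its span was 1.8-fold against 8.3-fold for Dbp. The slope on Dbp was 0.24 ± 0.03 (adjusted p = 0.0176) and r was 0.93. It kept its call in 25 of 32 alternatives, and lost it with median scaling, with slide as a random block and without ezetimibe 4, among others. Lnx1, a ubiquitin ligase gene, had 0.36 ± 0.05 (adjusted p = 0.0211), and Tmem252 had -0.34 ± 0.05 (adjusted p = 0.0211). The call of each was lost without control 1, without ezetimibe 2 or without ezetimibe 4. The probes named LOC100046232 and LOC100047427 in the table had slopes of -0.49 ± 0.05 (adjusted p = 0.00191) and 0.35 ± 0.06 (adjusted p = 0.0844). The second of these kept its call in 10 of 32 alternatives.

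The same fit on Arntl called 0 of 11886 probes (0%, with 549 at an unadjusted p under 0.05 and a smallest adjusted p of 0.309). Nr1d1 had the smallest p of all probes, with a slope of -1.31 ± 0.22 log2 per log2 unit of Arntl (unadjusted p = 2.71e-05, adjusted p = 0.309). Tef followed with -1.28 ± 0.40 at rank 55 and Dbp with -2.04 ± 0.66 at rank 67 (adjusted p = 0.957 for both). Of the 8 other clock genes, 7 had a slope below 0 and 3 an unadjusted p under 0.05. The 7 included Clock at -0.0007 ± 0.15 and Per1 at -0.03 ± 0.25, and the dimmer Clock probe had 0.14 ± 0.24. The median slope over all tested probes was -0.0023. The Arntl span was 2.05-fold, against 8.3-fold for Dbp.

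Genes of 6 other lists were read from the same fits, each at its brightest tested probe, and the plot of slopes on Dbp gives them all. Other clock genes, 7 of 12 tested, had 0 past the threshold with Dbp, a median slope of 0.07 and 2 with an unadjusted p under 0.05. The median over all tested probes was -0.000326. Cry2, a cryptochrome repressor, had a slope of 0.27 ± 0.09 (adjusted p = 0.456), and Ciart, a repressor of the CLOCK and ARNTL pair, 0.18 ± 0.06 (adjusted p = 0.508). Genes known to be rhythmic in many mouse tissues, 7 of 9 tested, had 0 past it, a median of 0.13 and 4 with an unadjusted p under 0.05. Usp2, a deubiquitinase, had 0.22 ± 0.05 and Noct, a phosphatase also called nocturnin, 0.19 ± 0.05 (adjusted p = 0.186 and 0.298).

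Rhythmic intestinal transporters and lipid genes, 6 of 8 tested, had 1 past the threshold, Slc5a1, and a median slope of 0.08. At an unadjusted p under 0.05 there were 3 of the 6, against 8.48% of all tested probes. The 2 lowest slopes were 0.001 ± 0.04 for Apoa4 and 0.03 ± 0.07 for Slc15a1, a peptide transporter gene. Slc2a2, the gene of the basolateral sugar transporter GLUT2, had 0.14 ± 0.05 (adjusted p = 0.505). Temperature-driven genes, 5 of 8 tested, had 0 past it and a median of -0.13. Hspa1a, an HSP70 chaperone gene, lay at 7.01, 4.78, 5.50, 8.28 and 4.73 in ezetimibe mice, against 4.69 to 7.92 (median 5.58) in control mice. Its 4 highest levels were in the 4 mice with the lowest Dbp. Its slope on Dbp was -0.90 ± 0.20 (unadjusted p = 0.000427, adjusted p = 0.186), and that of its partner Hsph1 -0.31 ± 0.07 (adjusted p = 0.186). The Hspa1a probe was detected on 9 of 13 arrays.

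Glucocorticoid-responsive genes, all 7 with a probe tested, had 0 past the threshold with Dbp and a median of 0.07. Klf9, a transcription factor gene, had 0.30 ± 0.09 (adjusted p = 0.422) and Tsc22d3, also called Gilz, 0.10 ± 0.05 (adjusted p = 0.615). Immediate early genes, 7 of 8 tested, had 0 past it and a median of 0.04, with Junb at 0.15 ± 0.04 and Fos at 0.13 ± 0.05 (adjusted p = 0.377 and 0.517). None of the 6 lists had a gene past the threshold for ezetimibe or for Arntl. For ezetimibe, the smallest p of these lists was that of Por, the P450 reductase gene, at 0.27 ± 0.11 (adjusted p = 0.745), and Bhlhe40, a clock repressor gene, had 0.31 ± 0.15 (adjusted p = 0.806).

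**Figure D5:**
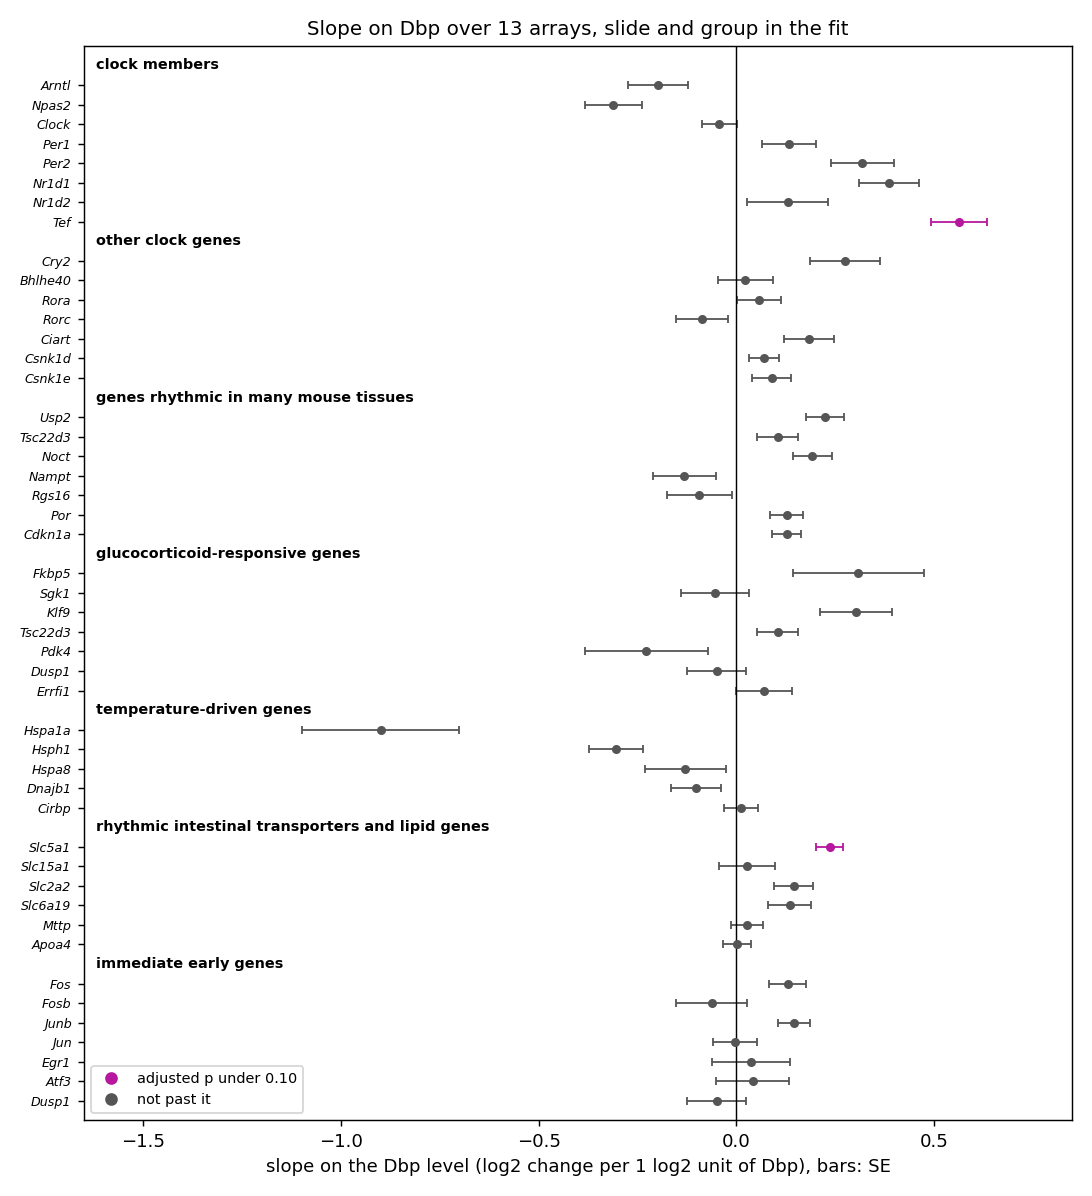
Slope on the Dbp level (x axis, log2 per log2 unit of Dbp, bars are SE) for the 8 other clock genes and the tested genes of 6 lists (rows), over 13 mice with slide and group in the fit. Purple marks an adjusted p under 0.10 over all tested probes: Tef at 0.56 and Slc5a1 at 0.24.

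By likeness of pattern over the 13 slide-adjusted arrays, the genes closest to Dbp were Slc5a1 (r = 0.93), Ugcg, the glucosylceramide synthase gene (0.919), Tef (0.908), Ubxn6 (0.894) and Fbxo4 (0.87). The most opposite were Fermt1 (-0.92), Ubr7 (-0.911), Aagab (-0.907), Tmem252 (-0.906) and LOC100046232 (-0.902). Tef was thus the third most like Dbp of all tested genes. For Arntl the closest were Nsun4 (r = 0.878), Rgs1 (0.868), Stip1 (0.843), Ubb-ps (0.795), Evc (0.787), 4933428G20Rik (0.776), Nol11 (0.772), Lsm2 (0.765), Blvra (0.763) and LOC100047480 (0.762). The most opposite were Asic3 (-0.88), Ripk1 (-0.871), Nmu (-0.858), Itgb6 (-0.854), Tmem138 (-0.847), E430018J23Rik (-0.842), Emp1 (-0.838), Cds1 (-0.824), Nr1d1 (-0.82) and Cobl (-0.819). These were picked as extremes and carry no test.

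Of 24 relations of Dbp and Arntl with cell type markers or array position, 0 had an adjusted p under 0.10 (permutation test, smallest 0.252 for r and 0.19 for rho). Dbp and the mean of the goblet cell markers (2 of 5 tested) gave r = 0.723 and rho = 0.742 (permutation p = 0.0105 and 0.00792, adjusted 0.252 and 0.19 over 24 relations), with r = 0.722 on slide 1, 0.723 on slide 2 and 0.815 without the 2 mice farthest from the median Dbp. Goblet marker means were 11.93 to 12.45 in ezetimibe mice and 11.98 to 12.69 in control mice. Dbp and the markers of proliferating crypt cells (4 of 6 tested), at 7.23 to 8.13 in ezetimibe mice and 7.49 to 8.17 in control mice, gave r = -0.593 and rho = -0.396 (permutation p = 0.0401 and 0.203, adjusted 0.464 and 0.514), with r = -0.815 on slide 1, -0.383 on slide 2 and -0.503 without those 2 mice. Exocrine pancreas markers gave r = -0.0864 and rho = -0.247 with Dbp (permutation p = 0.785 and 0.451, adjusted 0.911 and 0.721), with r = 0.462 on slide 1, -0.4 on slide 2 and -0.297 without those 2 mice. For Arntl, the r farthest from 0 was that with the goblet cell markers, r = -0.514 and rho = -0.533 (permutation p = 0.0859 and 0.0781, adjusted 0.464 and 0.469), with -0.128 on slide 1, -0.923 on slide 2 and -0.585 without control 6 and control 3. Red blood cell markers gave r = -0.508 and enterocyte markers -0.479 with Arntl (adjusted permutation p = 0.464 for both; rho -0.56 and -0.555). With the pancreas level as a covariate, Tef was again past the threshold on Dbp. The part of goblet and crypt cells in the relations above was not tested.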

How the data were processed

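RNA of 13 mice, 5 ezetimibe and 8 control, was measured on Illumina MouseRef-8 v2.0 arrays. Per the file headers, the unnormalized deposited table gives each probe a linear mean bead intensity and, as a second column per array, the detection p-value. The processed deposited values are linear intensities as well (column medians 236.1 to 236.3) and served as an alternative. The authors' own steps were, per the series' design text, quantile normalization, Combat, a prefilter on a fold change of 1.1 and IBMT in MADMAX, with a false discovery rate of 10%. Program versions, and any offset or centring, are not given in the sources.

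From the unnormalized table, neqc in limma 3.58.1 (R 4.3.3) corrected background from the detection p-values, added an offset of 16 and quantile-normalized to log2. A probe was tested if its detection p was under 0.05 on 5 or more of the 13 arrays, regardless of group. Slide, read from the array names, and group were fixed terms in lmFit and eBayes with an intensity trend. Levels of Arntl or Dbp were added as a covariate for slopes. Benjamini-Hochberg adjustment ran over all tested probes, with the threshold at an adjusted p of 0.10. Correlations used slide-adjusted levels, with 100000 permutations within slides, or exact permutation with fewer than 10 arrays. The number of arrays limits the precision. The labels call the arrays biological replicates. The fits were tested on simulated data.

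Gene names came from the table's symbols, updated through RefSeq: 20439 probes had a current symbol, 4135 were renamed, 1103 stayed as deposited and 20 were dates. Promoter windows came from RefSeq, build GRCm38.p6. They matched 9 of the 10 clock genes, all but Per2. Where a gene had several tested probes, the brightest stood for it in slopes and pairs. The other tested probes are given for the ezetimibe differences and for the slopes on Dbp. Named genes were all clock genes, the 10 probes most like and most unlike Arntl, the 5 most like and unlike Dbp, and in each list every gene past the threshold or else up to 2 with the smallest p. For the intestinal transporters and lipid genes, the 2 lowest slopes on Dbp are named too. The clock genes and lists were chosen with earlier results of these data known. Alternatives were other background corrections, normalizations, filters, slide and variance models, added covariates, and each array left out.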

Additional observations from a re-analysis of the deposited data

Results flagged for a closer look

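The dimmer Clock probe had a level of 4.44 (log2 intensity, slide-adjusted) in control 8, apart from the other 7 control mice, of which the nearest was at 4.99. That gap was 0.601 of the range of the control mice. Chance sets apart about 5% of groups by this measure, and 1 of the 24 groups examined (12 clock probes in 2 groups) was set apart. The dimmer probe was near background, detected in 5 of 8 control mice. Its unnormalized signal in control 8 was 120.9, against a median of 121 on that array. The brighter Clock probe was also lowest in control 8, at 8.87.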

How the results depend on the processing

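For ezetimibe, 0 of the clock probes passed under the alternatives that tested them, except with the replicate number as a block, where 1 did, Nr1d1 (ezetimibe minus control 0.96 log2, adjusted p = 0.0802). The filter at 0.01 on all arrays left out the Arntl, dimmer Clock and Nr1d2 probes. Deviations of mice with the same replicate number correlated at -0.4216 to 0.3649, and whether the numbers pair the mice was not tested. With that block, 0 probes and 0 clock genes passed on Dbp and 4 probes on Arntl. The count of 30 probes for ezetimibe became 17 without a slide term, 6 on slide 1 alone, 10 on slide 2 alone, 19 with probes averaged per gene and 81 after the fold prefilter. Leaving out 1 array gave 20 to 45.

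The 6 probes on Dbp became 2 with median scaling, 15 with detection at 0.01 on all arrays, 1 without a slide term, 0 on either slide alone, 11 with robust eBayes, 11 with array weights and 15 with probes averaged per gene. Leaving out 1 array gave 2 (without ezetimibe 4) to 10 (without control 8), and 3 without control 1. Clock genes on Dbp were 2, Nr1d1 and Tef, under the strict detection filter, robust eBayes, array weights, averaged probes and without control 8, and 0 without a slide term or on 1 slide. Leaving out 1 array gave 1 to 2.

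On Arntl, 2 probes passed without a detection filter, 1 with position as a covariate, 1 with robust eBayes and 3425 without a slide term. Arntl itself differed between slides by -0.75. Nr1d1 was the 1 clock gene in the first 3 of these, and Dbp and Nr1d1 were the 2 without a slide term. Of 36 pairs, 12 had an adjusted p under 0.10 for r and 7 for rho (between the arms 7 and 3 of 18). The count for r was 6 without slide adjustment, 4 on slide 1 alone, 0 on slide 2 alone and 1 in control mice alone, and 8 to 12 leaving out 1 array. Npas2 and Per1 reversed on slide 1 alone (r = 0.179). Fewer arrays enter the single-slide and control fits. For the other changes the cause was not tested. Of 936 values of r under the alternatives, 784 kept direction and, where tested, side of the threshold. So did 851 of 923 slopes on Dbp and 340 of 381 ezetimibe differences. The r without the 2 mice farthest from the median had no test. Most of these results, and all ezetimibe differences, were not past the threshold in the main fit. Among the results that were past it, 81 values of r and 53 slopes on Dbp lost the call.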
